A study of Mus musculus with 10 samples.

Results

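Ces1d and 9 genes of adipocytes, the fat cells that lie between and around muscle fibers, were followed over the 10 arrays of the study. The other genes were Adipoq, Cfd, Plin1, Fabp4, Cidec, Retn, Lep, Scd1 and Car3, each found by its symbol in the array annotation. Ces1d was chosen by its group differences on these same arrays, which had opposite signs in the 2 muscles studied, and the adipocyte genes were named to set beside it. The question was whether Ces1d followed the fat cell genes from array to array within each muscle. Of the 10 genes, 9 were measured, by 1 probe set each, out of 19938 genes on the array. No probe set named Cfd alone, and it was not analysed here.

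TA, the tibialis anterior, is a fast muscle at the front of the lower leg. For the TA samples, mice of the strain written C56BL6N were given 10 µg of a plasmid by electroporation at 8 weeks of age, and GFP-positive myofibers were picked 2 weeks later. The plasmid expressed an shRNA against linc-MYH, a long intergenic non-coding RNA of fast fibers, on 2 arrays (shlinc-MYH), and was the control vector on 2 arrays. The methods describe the control of the shlinc-MYH knockdowns as an shRNA against LacZ given to the opposite TA, so a control and a knockdown array may come from the legs of 1 mouse, and the labels do not say which. In gastrocnemius, a calf muscle, 3 arrays came from cSix1 KO mice and 3 from wild type control mice, all given as C56BL6N and 8 weeks old and with no plasmid. The cSix1 KO mice carry a floxed allele that is deleted by CRE under the human skeletal actin promoter, which is active in skeletal muscle fibers. The targets of the knockout and of the shRNA were not analysed here, so the labels were not checked against them. The samples were picked fibers in TA and collected muscle in gastrocnemius, so muscle, dissection and perturbation cannot be told apart between the 2 comparisons. Values are log2 signals after RMA normalization, and since the TA arrays and the gastrocnemius arrays have different distributions, no level was compared between muscles. Arrays of 1 muscle correlated at 0.982 to 0.995 over probe sets, and none of the 10 fast fiber and muscle genes used to check the tissue had a control signal below that of the median gene. The methods state that electroporated muscles of 1 condition were from different mice, though for more muscles per condition than there are arrays, and the labels name no animals. Where arrays of a group, as in gastrocnemius, are not said to be separate animals, p-values measure only the spread between these samples.

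Adipocytes store triglyceride in a large droplet coated with perilipin and CIDE proteins, and secrete the hormones adiponectin, resistin and leptin. Their differentiation rests on the transcription factors PPARγ and C/EBPα, which switch on most of the genes described here. Ces1d encodes a carboxylesterase, also called triacylglycerol hydrolase or Ces3, which is abundant in liver and adipose tissue and hydrolyzes stored triglyceride. Skeletal muscle fibers share part of this equipment, among it Car3, a carbonic anhydrase of slow fibers and of fat cells.

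The RefSeq table of promoters (GRCm38.p6) held 6 of the 10 genes in 7 windows. The 250 bases before the start site are shown, in the direction of the gene, for the 4 genes with a match to a motif searched. Their signals moved together across the gastrocnemius arrays, as did that of Retn, which had no match. The capitals mark matches, on either strand, to TTGNGCAA, a form of the C/EBP motif, and to CCAAT, the 2 motifs with a match.
Lep, chr6:29059971-29060220, plus strand: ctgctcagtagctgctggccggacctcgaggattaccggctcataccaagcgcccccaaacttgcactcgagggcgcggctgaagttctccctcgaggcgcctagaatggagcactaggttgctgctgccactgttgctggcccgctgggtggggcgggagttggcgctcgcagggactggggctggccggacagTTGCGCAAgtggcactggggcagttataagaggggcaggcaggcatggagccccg
Plin1, chr7:79732777-79733026, minus strand: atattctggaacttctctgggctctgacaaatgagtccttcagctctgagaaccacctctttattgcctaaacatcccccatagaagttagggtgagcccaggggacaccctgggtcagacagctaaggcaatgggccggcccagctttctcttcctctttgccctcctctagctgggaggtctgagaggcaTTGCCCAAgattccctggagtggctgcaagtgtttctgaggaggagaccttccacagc
Cidec, chr6:113434765-113435014, minus strand: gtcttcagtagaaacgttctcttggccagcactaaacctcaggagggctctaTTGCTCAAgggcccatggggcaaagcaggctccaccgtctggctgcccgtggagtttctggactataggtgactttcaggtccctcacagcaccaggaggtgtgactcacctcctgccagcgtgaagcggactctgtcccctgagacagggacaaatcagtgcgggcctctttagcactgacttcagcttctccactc
Adipoq, chr16:23146286-23146535, plus strand: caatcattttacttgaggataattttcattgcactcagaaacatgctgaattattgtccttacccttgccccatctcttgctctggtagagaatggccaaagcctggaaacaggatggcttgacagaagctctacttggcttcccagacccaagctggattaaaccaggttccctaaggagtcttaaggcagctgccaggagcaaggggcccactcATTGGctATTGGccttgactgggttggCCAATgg
TTGNGCAA lay 55 to 48 bases upstream of the start in Lep, 58 to 51 bases upstream in Plin1 and 198 to 191 bases upstream of 1 of the 2 starts of Cidec. It was found in 3 of the 7 windows and in 2.61% of all 32851 windows. CCAAT was found 3 times close to the start of Adipoq, in 1 of the 7 windows against 33.8% of all windows. A direct repeat of AGGTCA spaced by 1 base (DR1), the form of the PPAR motif searched on both strands, was in 0 of the 7 windows and in 0.0335% of all windows. No C/EBP-type match and no CCAAT was found upstream of Retn.

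Ces1d was lower in the shlinc-MYH fibers of TA and higher in cSix1 KO gastrocnemius, the pattern for which it was chosen. Its log2 signal in TA was 5.52 and 6.34 on the control arrays and 5.01 and 4.81 on the shlinc-MYH arrays. Both shlinc-MYH arrays lay below both controls, and the controls were 0.81 apart. The difference of means was -1.02, or 2.03-fold lower. In gastrocnemius it was 10.21, 9.84 and 9.01 on the control arrays and 10.24, 10.68 and 10.91 on the cSix1 KO arrays. The lowest cSix1 KO array, at 10.24, was just above the highest control, at 10.21, so the groups touched without overlapping. The difference was 0.93, or 1.90-fold higher. As these differences chose the gene, they carry no test. The difference in TA was -0.61 without control array 2, and that in gastrocnemius was 0.59 without control array 3, the lowest of the 6 arrays.

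**Figure D1:**
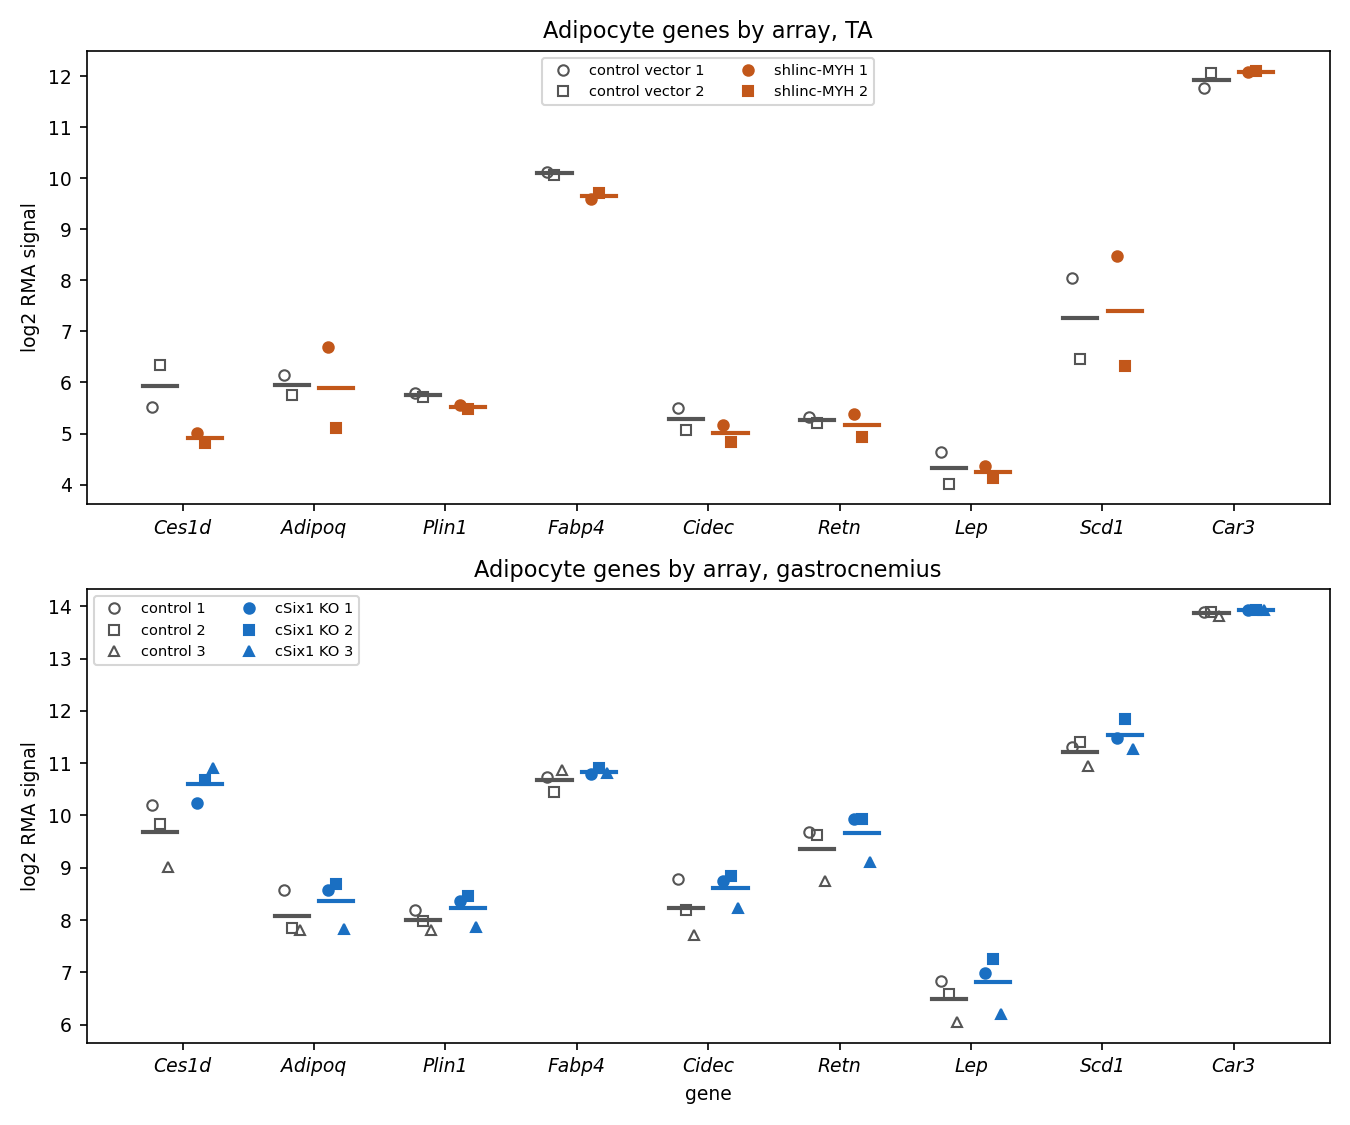
The log2 RMA signal of the 9 measured genes on each array, TA above and gastrocnemius below, with open symbols for control arrays, filled symbols for shlinc-MYH or cSix1 KO arrays, the symbol shape for the replicate number and a bar for each group mean. Ces1d separates the groups in both muscles, while Adipoq and Scd1 in TA separate the replicate 1 arrays from the replicate 2 arrays.

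None of the other 8 genes was called in either comparison, where called means an adjusted p under 0.05 by limma with Benjamini-Hochberg adjustment over all 19938 genes. In TA this was 0 of 8, and 0.015% of all genes were called. In gastrocnemius it was 0 of 8, and 1.74% of all genes were called. At an unadjusted p under 0.05 by limma, 1 of 8 passed in TA (Fabp4), where 8.65% of all genes did, and 0 of 8 in gastrocnemius, where 14.9% did. The methods' t-test gave the same counts of these 8 genes, 0 after adjustment and 1 and 0 before it. After adjustment it called 0 of all 19938 genes in TA and 4 in gastrocnemius, so the counts of 0 say little about these genes. Before adjustment 6.94% and 13.1% of all genes passed it. The 6 genes taken to follow fat cells, Adipoq, Plin1, Cidec, Retn, Lep and Fabp4, of which Fabp4 has other sources as well, all had differences below 0 in TA, where 56.2% of all genes did, with a median of -0.16 against -0.03 for all genes. All 6 had differences above 0 in gastrocnemius, where 52.8% of all genes did, with a median of 0.30 against 0.01 for all genes. Without Fabp4, a choice made after seeing the data, the medians were -0.095 and 0.31. Genes read from the same arrays are not independent, and both medians rested on single arrays. The TA median was -0.04 without control array 1, -0.03 without shlinc-MYH array 2, -0.33 without control array 2 and -0.35 without shlinc-MYH array 1. The gastrocnemius median was 0.56 without cSix1 KO array 3 and 0.49 without control array 1, and 0.18, 0.12 and 0.13 without cSix1 KO array 1, cSix1 KO array 2 and control array 3. In such bulk samples, fewer fat cells and less RNA of these genes per fat cell cannot be told apart.

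Of the secreted factors, none separated the groups. Adipoq, which encodes adiponectin, was at 6.15 and 5.76 on the TA control arrays and at 6.69 and 5.11 on the shlinc-MYH arrays. The shlinc-MYH arrays were the highest and the lowest of the 4, and the difference of -0.06 had a 95% interval from -1.19 to 1.08. In gastrocnemius Adipoq was at 8.57, 7.85 and 7.81 in controls and at 8.57, 8.69 and 7.82 in cSix1 KO muscle. Each group had high and low arrays, with cSix1 KO array 3 next to the low controls, and the difference was 0.29 ± 0.27 (SE, n = 3 and 3, adjusted p = 0.723 by limma). Retn, the gene of resistin, was at 5.32 and 5.20 on the TA controls and at 5.39 and 4.94 on the shlinc-MYH arrays, which overlapped. In gastrocnemius it was at 9.68, 9.63 and 8.75 in controls and at 9.93, 9.94 and 9.12 in cSix1 KO muscle. Within each group array 3 was the lowest, and the difference was 0.31 ± 0.29 (SE, adjusted p = 0.725 by limma). Lep, the gene of leptin, was at 4.64 and 4.02 on the TA controls and at 4.37 and 4.14 on the shlinc-MYH arrays, among the dim genes of the TA arrays. In gastrocnemius it was at 6.84, 6.60 and 6.05 in controls and at 7.00, 7.26 and 6.21 in cSix1 KO muscle. Array 3 was again the lowest of each group, and the difference was 0.33 ± 0.28 (SE, adjusted p = 0.694 by limma).

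The lipid droplet genes were likewise lowest on array 3 of both gastrocnemius groups. Plin1, which encodes the perilipin that guards the droplet from lipases, was at 8.20, 7.97 and 7.82 in controls and at 8.37, 8.47 and 7.87 in cSix1 KO muscle. The groups overlapped through cSix1 KO array 3, and the difference was 0.24 ± 0.16 (SE, adjusted p = 0.589 by limma). Cidec, which encodes a protein that fuses droplets, was at 8.79, 8.19 and 7.72 in controls and at 8.75, 8.85 and 8.22 in cSix1 KO muscle. Its control array 1 was above cSix1 KO arrays 1 and 3, and the difference was 0.37 ± 0.27 (SE, adjusted p = 0.612 by limma). In TA, Plin1 was at 5.79 and 5.71 in controls and at 5.56 and 5.48 on the shlinc-MYH arrays. These groups did not overlap, and the difference of -0.23 had an adjusted p of 0.640 by limma. Cidec in TA was at 5.51 and 5.06 in controls and at 5.17 and 4.83 on the shlinc-MYH arrays, with overlap and a difference of -0.28 ± 0.19 (SE, adjusted p = 0.740 by limma).

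Fabp4, the fatty acid carrier aP2 of adipocytes, is also made by capillary endothelium and macrophages, and its arrays were ordered differently. In TA it was at 10.13 and 10.07 in controls and at 9.58 and 9.72 on the shlinc-MYH arrays. Both shlinc-MYH arrays were below both controls, whose spread was 0.06, and the difference was -0.44 ± 0.12 (SE, unadjusted p = 0.00933 and adjusted p = 0.471 by limma). All 10 endothelial markers also had differences below 0 in TA, where 56.2% of all genes did, with a median of -0.59. Their summed linear signal ranged from 1489 to 1529 in controls and from 753 to 1202 on the shlinc-MYH arrays. Among these markers Pecam1 had a difference of -0.83 and Flt1 of -0.82. Of the 10, 0 were called and 7 had an unadjusted p under 0.05 by limma, where 8.65% of all genes did. The part of endothelial RNA in the Fabp4 difference was not tested. In gastrocnemius Fabp4 was at 10.74, 10.45 and 10.86 in controls and at 10.79, 10.90 and 10.81 in cSix1 KO muscle. These groups overlapped, with a difference of 0.15 ± 0.11 (SE, adjusted p = 0.618 by limma), and the median over endothelial markers was 0.05.

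The 2 enzymes are not restricted to fat cells. Scd1, the stearoyl-CoA desaturase that makes monounsaturated fatty acids, was at 8.06 and 6.46 on the TA controls and at 8.47 and 6.32 on the shlinc-MYH arrays. Its range of 2.15 over the 4 arrays lay between replicate numbers rather than between groups, and the difference of 0.14 had a 95% interval from -1.71 to 1.98. In gastrocnemius Scd1 was at 11.30, 11.41 and 10.95 in controls and at 11.49, 11.84 and 11.28 in cSix1 KO muscle. The groups overlapped, and the difference was 0.32 ± 0.16 (SE, adjusted p = 0.443 by limma). Car3 was at 11.77 and 12.06 on the TA controls and at 12.09 on both shlinc-MYH arrays. In gastrocnemius it was at 13.89, 13.89 and 13.81 in controls and at 13.92, 13.92 and 13.93 in cSix1 KO muscle, the brightest end of the signal range. Its groups did not overlap in either muscle, with differences of 0.18 and 0.06 (adjusted p = 0.778 and 0.746 by limma), and RMA signals at that end are compressed.

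**Figure D2:**
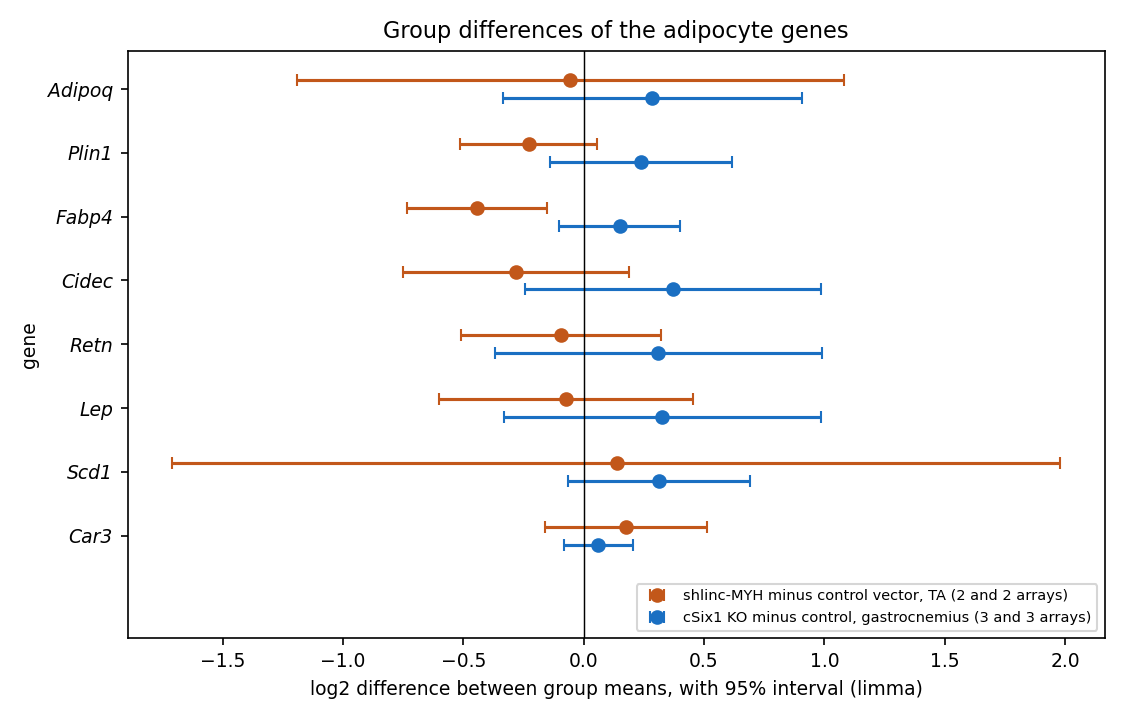
The log2 difference between group means for the 8 measured genes other than Ces1d, with 95% intervals from limma, orange for shlinc-MYH minus control vector in TA and blue for cSix1 KO minus control in gastrocnemius. Only the interval of Fabp4 in TA, from -0.73 to -0.15, leaves out 0, and that gene was not called after adjustment.

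By groups that do not overlap, Plin1 and Fabp4 were lower in TA, 2 of 8 genes against 23.0% of all genes, and Car3 was higher, 1 of 8 against 16.3%. In gastrocnemius Car3 alone was higher, 1 of 8 against 11.0% of all genes, and 0 of 8 were lower against 9.85%. The difference between the 2 comparisons was tested for the same 8 genes in 1 limma fit over the 10 arrays. It was called for 0 of 8 and for 0.145% of all genes. At an unadjusted p under 0.05 it passed for 1 of 8 and for 12.3% of all genes, and the 1 gene was Fabp4, with 0.59 ± 0.17 (SE, adjusted p = 0.221 by limma). For Adipoq the gastrocnemius difference minus the TA difference was 0.34, with a 95% interval from -0.95 to 1.63. The intervals of Plin1, Cidec, Retn, Lep, Scd1 and Car3 held 0 as well, the widest that of Scd1, from -1.55 to 1.90, so differences between comparisons of these sizes could not be seen with 10 arrays.

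In TA, Plin1 and Fabp4 separated the groups in the direction of Ces1d, 2 of 8 genes, which is near the 23.0% of all genes that did so. Other adipocyte genes separated the replicate numbers. Adipoq, Cidec, Retn, Lep and Scd1 were higher on both replicate 1 arrays than on both replicate 2 arrays, a pattern noticed after the values were seen, in 5 of 8 genes, 5 of 17 other adipocyte markers and 14.1% of all genes, with mean gaps of 0.98, 0.39, 0.28, 0.43 and 1.87. Ces1d had a mean gap of -0.31, but no common direction. It was lower on replicate 1 in the controls (5.52 against 6.34) and higher on replicate 1 in the shlinc-MYH arrays (5.01 against 4.81). Its highest array was control array 2, at 6.34, where the mean of the 6 fat cell genes was 5.97, the third highest of 4. Control array 1, with the highest fat cell mean at 6.25, had Ces1d at 5.52. The shlinc-MYH array 1 had the second highest fat cell mean, 6.13, the highest Adipoq and Ces1d at 5.01. The order of the arrays by Ces1d was thus not that by Adipoq or by the mean, which was the same with and without Fabp4, while Plin1 and Fabp4 had both shlinc-MYH arrays below both controls as Ces1d did. With 4 arrays no correlation is given. Cyp2e1, a cytochrome P450 of liver and fat cells that was noticed after its values were seen, had the order of Adipoq and Scd1, at 6.64 and 5.80 in controls and at 7.65 and 5.65 on the shlinc-MYH arrays. It is 1 of the 9 hepatocyte markers measured here, and the others are not described by replicate number.

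In gastrocnemius Ces1d had the order of the fat cell mean on 5 of the 6 arrays, with or without Fabp4 in the mean. The fat cell mean was 8.80, 8.45 and 8.17 on control arrays 1, 2 and 3, and Ces1d was ordered in the same way, at 10.21, 9.84 and 9.01. On cSix1 KO arrays 1 and 2 the fat cell mean was 8.90 and 9.02, the highest, with Ces1d at 10.24 and 10.68. On cSix1 KO array 3 the fat cell mean was 8.34, the fifth highest of 6, and Ces1d was 10.91, its highest value. The gap between Ces1d and the fat cell mean was 2.57 on that array and from 0.84 to 1.66 on the other 5. With the fat cell mean as a covariate the group difference of Ces1d was 0.79 in gastrocnemius and -1.13 in TA, with the mean of the 5 genes without Fabp4 it was 0.80 and -1.08, and with Adipoq it was 0.86 and -1.02. The slopes of Ces1d on these 3 covariates, in that order, were 0.466, 0.417 and 0.234 in gastrocnemius and -0.568, -0.412 and 0.00137 in TA. These are values with no test, from fits with 6 and 4 arrays. The group difference in them is the one that chose the gene, so they do not settle whether Ces1d followed the fat cell genes.

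**Figure D3:**
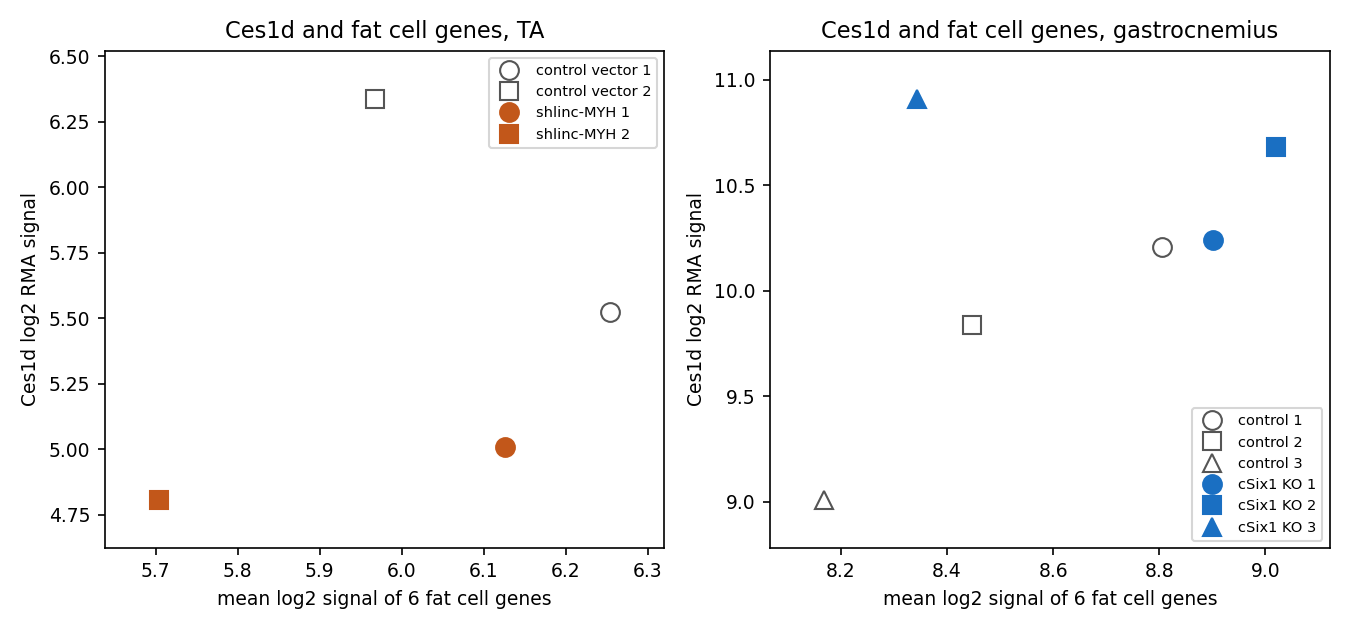
Ces1d log2 signal against the mean log2 signal of Adipoq, Plin1, Cidec, Retn, Lep and Fabp4, 1 point per array, in TA on the left and gastrocnemius on the right, with open symbols for controls and the symbol shape for the replicate number. In gastrocnemius 5 arrays climb together and cSix1 KO array 3 stands above them at a fat cell mean of 8.34, and in TA the highest Ces1d signal, 6.34, is at a fat cell mean of 5.97.

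Over the 6 gastrocnemius arrays, Ces1d correlated with Adipoq at r = 0.40 (Spearman rho 0.37), with Plin1 at 0.46 (0.43), with Cidec at 0.66 (0.60), with Retn at 0.50 (0.43), with Lep at 0.47 (0.43), with Fabp4 at 0.18 (0.31) and with Scd1 at 0.67 (0.37). These coefficients contain the group difference that chose Ces1d and are given without a p. Without cSix1 KO array 3, an array chosen after its values were seen, they were 0.88 for Adipoq, 0.94 for Plin1, 0.96 for Cidec, 0.95 for Retn, 0.99 for Lep, 0.92 for Scd1 and 0.11 for Fabp4. After each group mean was subtracted they were 0.21 for Adipoq, 0.15 for Plin1, 0.54 for Cidec, 0.38 for Retn, 0.30 for Lep, 0.41 for Scd1 and -0.35 for Fabp4. Without the 2 arrays farthest from the median of each gene the sign turned for Adipoq (-0.22), Cidec (-0.16), Lep (-0.61), Scd1 (-0.58) and Fabp4 (-0.58). The relation of Ces1d to the fat cell genes rested on single arrays. Car3 had the highest coefficient, at 0.95 (rho 0.94), and 0.88 after group means were subtracted, over a range of only 0.12 in Car3. In TA the group differences of Car3 and Ces1d had opposite signs, at 0.18 and -1.02. Across the gastrocnemius arrays Adipoq, Plin1, Cidec, Retn and Lep correlated with each other more closely than with Ces1d. Their median was 0.92 over 10 pairs (0.81 to 0.98) and 0.90 within groups. Fabp4 did not follow these 5 genes, with coefficients from -0.16 to 0.36.

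Ranked over the 6 gastrocnemius arrays among genes brighter than the median, Ces1d was most like 4930523C07Rik (r = 0.98), Dpm3 (0.98), 1700052K11Rik (0.97), Slc4a2 (0.97) and Nsrp1 (0.97). Of the adipocyte genes and markers, Car3 alone was among its nearest 100. Adipoq was most like Polr3a (0.99), Mccc1 (0.99), Npr3 (0.99), Art5 (0.98) and Cdo1 (0.98), and Npr3, Lgals12 and Plin1 were among its nearest 100. Ces1d ranked 3628 of 9969 genes by likeness to Adipoq, Plin1 ranked 38, Cidec 102, Lep 133, Retn 590, Scd1 1428, Car3 3103 and Fabp4 3907. Over the 10 arrays with tissue means subtracted, Ces1d was most like 4930523C07Rik (0.93), Lrrc8b (0.92), Tarbp1 (0.91), Aqp4 (0.91) and Gpx3 (0.90), with 0 adipocyte genes among the nearest 100. Car3 then ranked 3878 of 9969 genes by likeness to Ces1d, at 0.14. Adipoq was then most like Gpm6b (0.95), Sestd1 (0.95), Cry2 (0.94), Rpl30 (0.92) and Hint1 (0.92), with Cebpa and Scd1 among the nearest 100. With 6 or 10 arrays many genes reach such coefficients, and the arrays share their groups. The rankings that involve Ces1d also contain the group differences that chose it, so genes with such differences rank near it. They do not settle whether Ces1d followed the fat cell genes.

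Of 17 other adipocyte markers measured, 0 were called in either muscle, where 0.015% of all genes were called in TA and 1.74% in gastrocnemius. In gastrocnemius 16 of 17 had differences above 0, where 52.8% of all genes did, with a median of 0.24. An unadjusted p under 0.05 by limma was reached by 8, 7 of them above 0, against 14.9% of all genes. In TA 6 of 17 were above 0, against 43.7% of all genes, with a median of -0.10. Agpat2, an enzyme of triglyceride synthesis whose loss causes lipodystrophy, was at 8.14, 8.22 and 8.06 in gastrocnemius controls and at 8.85, 8.94 and 8.29 in cSix1 KO muscle. All cSix1 KO arrays were above the controls, array 3 by the least, and the difference was 0.55 ± 0.16 (SE, adjusted p = 0.154 by limma). Thrsp and Pnpla3, both lipogenic genes, had differences of 0.39 and 0.39 in gastrocnemius and 0.59 and 0.48 in TA, with groups that did not overlap in either muscle and adjusted p between 0.144 and 0.471 by limma. Gpd1, which makes glycerol 3-phosphate and is abundant in fast fibers as well, was the 1 marker below 0 in gastrocnemius, at -0.33 ± 0.08 (SE, adjusted p = 0.0968 by limma). Pparg, the gene of PPARγ, was -0.49 in TA and 0.34 in gastrocnemius, with adjusted p of 0.510 and 0.253 by limma. Several of these differences were larger in size without cSix1 KO array 3. Without it they were 0.75 for Agpat2, 0.47 for Pparg, 0.50 for Thrsp and -0.39 for Gpd1. That array was singled out after its values were seen, as was Pparg. The share of all genes called without it is not given, so no call is read from that fit. With all arrays 0 of 17 markers were called.

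**Figure D4:**
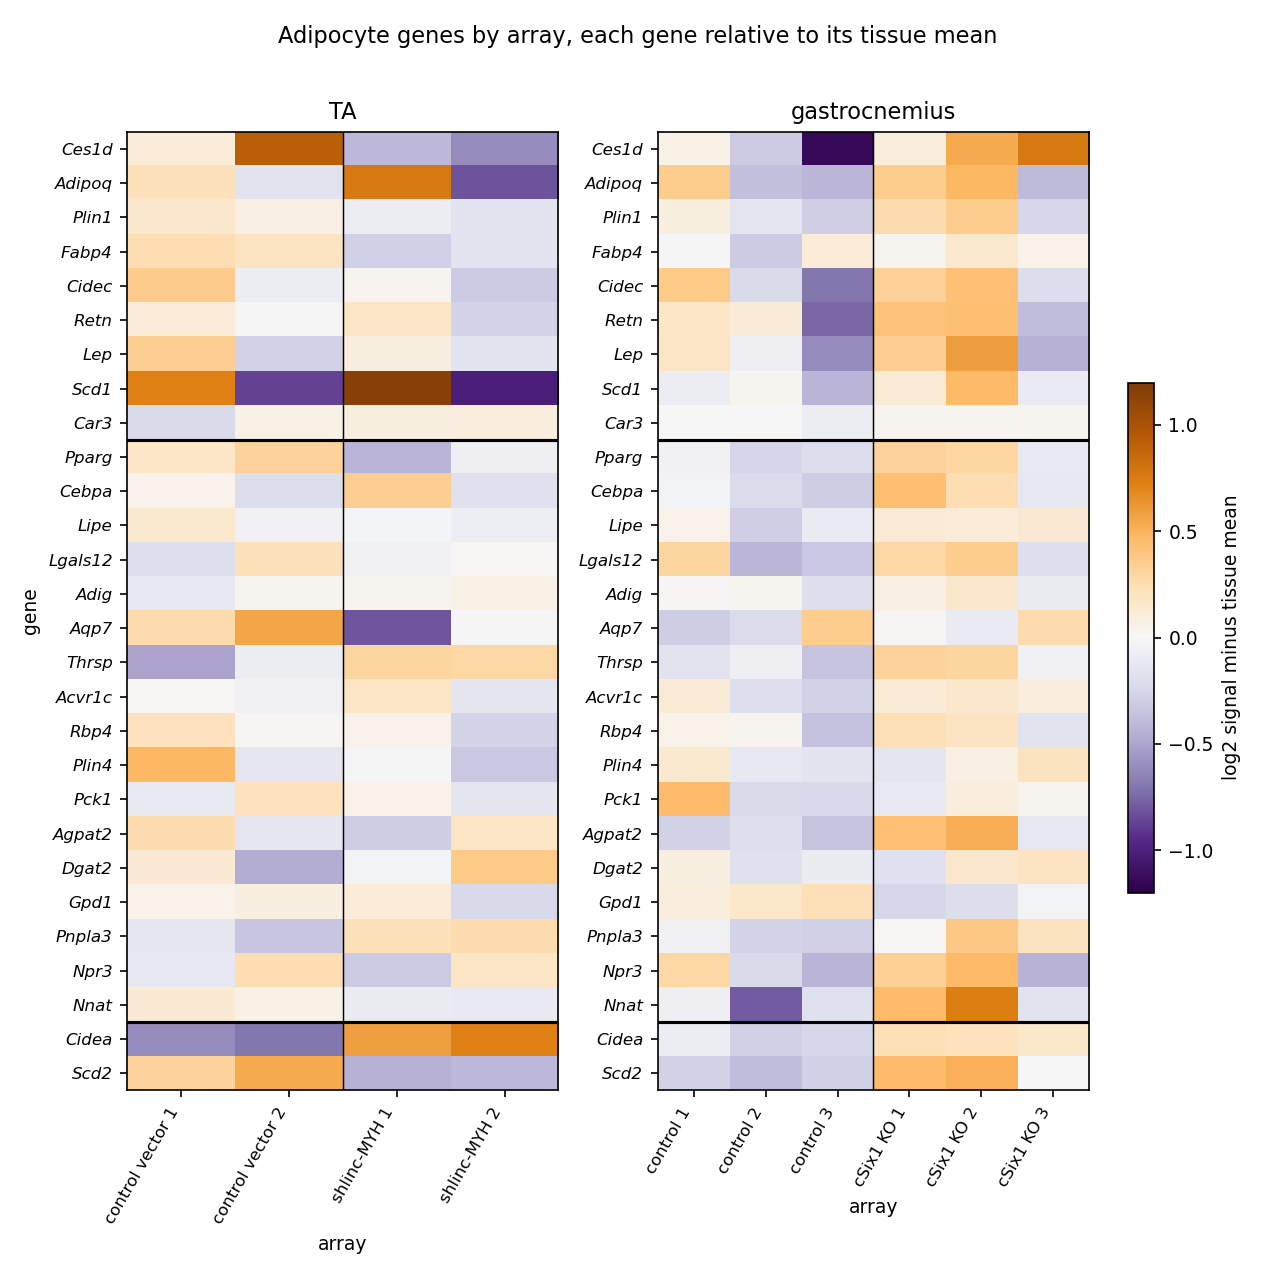
Each cell is the log2 signal of a gene on an array minus the mean of that gene over the arrays of the muscle, orange above and purple below, with the 9 measured genes on top, 17 other adipocyte markers in the middle and Cidea and Scd2 at the bottom. In gastrocnemius Adipoq, Plin1, Cidec, Retn and Lep are low on array 3 of both groups, and Ces1d is low on control array 3 and high on cSix1 KO array 3.

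Outside the adipocyte markers, a few genes of fat metabolism did pass the test in gastrocnemius, where 0.908% of all genes were called higher and 0.833% lower. Cidea, a lipid droplet protein of brown fat cells related to Cidec, rose. It was at 5.48, 5.27 and 5.31 in controls and at 5.80, 5.76 and 5.72 in cSix1 KO muscle. The 3 cSix1 KO arrays were close together above all controls, with a difference of 0.41 ± 0.08 (SE, adjusted p = 0.0445 by limma). The call was narrow and was lost on leaving out any 1 array other than cSix1 KO array 3, with values from 0.37 to 0.47 and adjusted p up to 0.169 by limma. In TA Cidea was at 4.79 and 4.70 in controls and at 5.99 and 6.13 on the shlinc-MYH arrays, also without overlap, with a difference of 1.31 ± 0.12 (SE, adjusted p = 0.0579 by limma). The 2 differences of Cidea differed from each other, by -0.90 ± 0.13 (SE, adjusted p = 0.0272 by limma), a call that was lost on leaving out any 1 array other than TA control array 2, with values from -0.97 to -0.83 and adjusted p from 0.0455 to 0.0923. Of 8 brown adipocyte genes, with medians of -0.12 in TA and 0.04 in gastrocnemius, Cidea was the 1 that was called. Ucp1, the uncoupling protein that defines brown fat cells, was at 3.77 and 3.74 in TA controls and at 3.83 and 3.91 on the shlinc-MYH arrays. These groups did not overlap, and the difference of 0.11 had an adjusted p of 0.839 by limma. In gastrocnemius its groups overlapped, with a difference of 0.25 (adjusted p = 0.391 by limma). Ucp1 was dim, with control means at percentile 16.4 of genes in TA and 22.2 in gastrocnemius.

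Of 14 genes of fatty acid and triglyceride synthesis, 1 was called in gastrocnemius, where 1.74% of all genes were, and 0 in TA. The medians were 0.16 and -0.15. Me1, the malic enzyme that supplies NADPH to lipogenesis, fell. It was at 11.13, 11.45 and 11.22 in controls and at 10.80, 10.73 and 10.48 in cSix1 KO muscle, and the difference was -0.60 ± 0.11 (SE, adjusted p = 0.0474 by limma). Leaving out any 1 of the 6 arrays ended this call, with values from -0.66 to -0.50 and adjusted p from 0.0542 to 0.157 by limma. Scd2, a desaturase related to Scd1 and found outside the liver, had the signs of Ces1d. In TA it was at 5.56 and 5.78 in controls and at 4.79 and 4.83 on the shlinc-MYH arrays, a difference of -0.86 ± 0.13 (SE, adjusted p = 0.225 by limma). In gastrocnemius it was at 9.53, 9.42 and 9.52 in controls and at 10.26, 10.33 and 9.81 in cSix1 KO muscle, a difference of 0.64 ± 0.13 (SE, adjusted p = 0.0614 by limma). Neither was called, the groups did not overlap in either muscle, and the difference between the comparisons was called, at 1.5 ± 0.20 (SE, adjusted p = 0.0193 by limma). On leaving out each array in turn that difference between comparisons was from 1.39 to 1.66, and its call was lost under 6 of 13 alternatives. In gastrocnemius the difference of Scd2 was 0.80 without cSix1 KO array 3, an array singled out after its values were seen. Of 12 genes of lipid uptake and breakdown 0 were called, with medians of -0.10 in TA and 0.15 in gastrocnemius. Cd36, a fatty acid receptor of fat cells, muscle and capillaries, was -0.67 ± 0.20 in TA (SE, adjusted p = 0.489 by limma), beside the endothelial markers already given.

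None of the relatives of Ces1d was called. On chromosome 8 Ces1d lies among the other Ces1 genes, with Ces1c and Ces1e on either side. Of 18 measured carboxylesterases and related esterases, Ces1d included, the medians were -0.06 in TA and 0.04 in gastrocnemius, and 15 and 17 of them had a control mean below that of the median gene. Ces1e was lower on all shlinc-MYH arrays and on all cSix1 KO arrays, with differences of -0.32 ± 0.15 and -0.18 ± 0.07 (SE, adjusted p = 0.629 and 0.267 by limma). Ces1b and Ces1c did not have the signs of Ces1d, with differences of 0.16 and 0.00 in TA and 0.10 and -0.06 in gastrocnemius. Ces1a, Ces1f and Ces1g had the signs of Ces1d at smaller sizes, from -0.16 to -0.03 in TA and from 0.06 to 0.21 in gastrocnemius, where their groups overlapped. Ces2g, a carboxylesterase of another cluster, had differences of -0.12 in TA and 0.37 in gastrocnemius, with adjusted p of 0.833 and 0.0751 by limma and no overlap. Probe sets of such similar genes can share targets, and the annotation gave 1 symbol to each of those used.

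**Figure D5:**
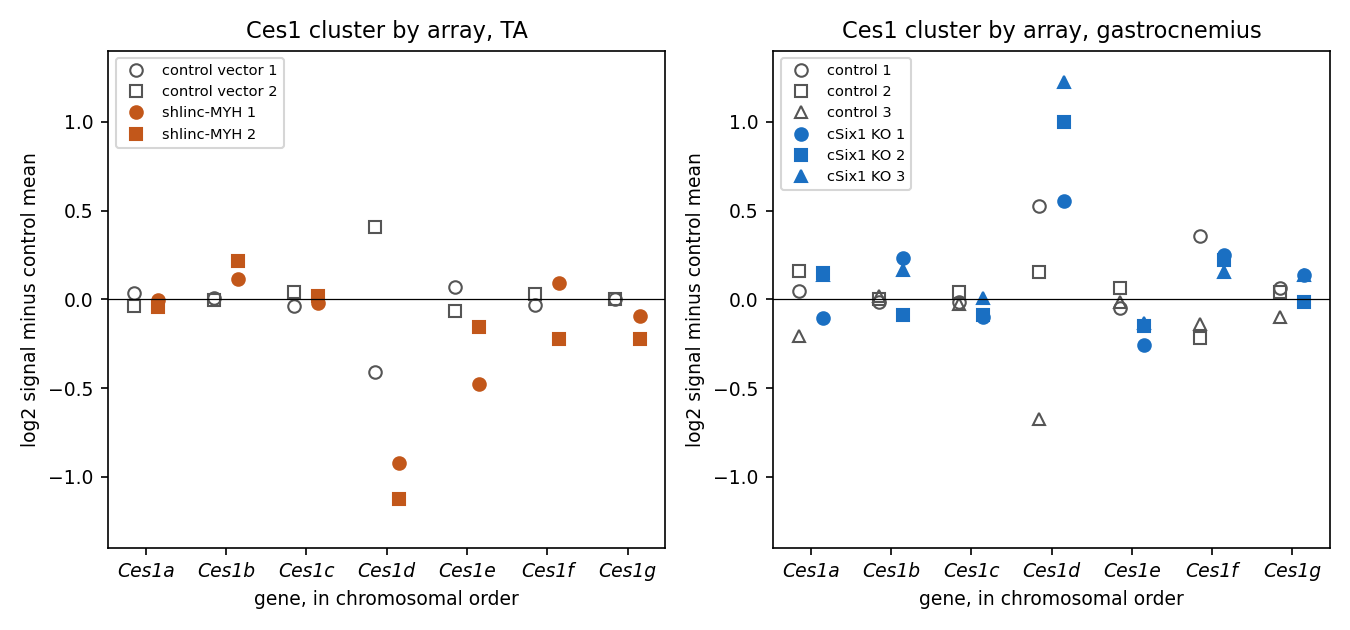
The log2 signal minus the control mean for the 7 measured genes of the Ces1 cluster in chromosomal order, TA on the left and gastrocnemius on the right, 1 symbol per array, with open symbols for controls. Ces1d spans a range of 1.53 in TA and 1.90 in gastrocnemius, and its neighbors stay within 0.55 and 0.58.

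Among 16 carbonic anhydrases, the family of Car3, 0 were called in TA and 1 in gastrocnemius, where 1.74% of all genes were. That 1 was Car1. It fell in gastrocnemius, from 7.30, 7.41 and 7.08 in controls to 6.70, 6.83 and 6.78 in cSix1 KO muscle, by -0.50 ± 0.09 (SE, adjusted p = 0.0481 by limma). This call was lost on leaving out any 1 array other than control array 3, with values from -0.53 to -0.42 and adjusted p up to 0.175 by limma. The family medians were -0.07 in TA and 0.00 in gastrocnemius.

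Markers of other cells were read beside these genes. Hepatocyte markers, 9 measured, had 0 called and medians of -0.02 in TA and -0.01 in gastrocnemius, and the control mean was below that of the median gene for 7 of 9 in both muscles. Macrophage markers had differences above 0 for 10 of 10 in gastrocnemius, where 52.8% of all genes did, with a median of 0.61. Their summed linear signal was 3628 to 4345 in controls and 5439 to 8289 in cSix1 KO muscle. Mrc1, a mannose receptor, rose by 0.77 ± 0.10 (SE, adjusted p = 0.0139 by limma), the 1 of 10 that was called, where 1.74% of all genes were. It was not called without control array 2 (0.74, adjusted p = 0.0678 by limma). Adipocyte precursor and fibroblast markers were above 0 for 11 of 11 in gastrocnemius, against the same 52.8% of all genes, with a median of 0.23 and 1 called. That 1 was Dlk1, whose protein marks preadipocytes and is also made in muscle, at 7.73, 7.81 and 7.73 in controls and at 8.57, 8.42 and 8.46 in cSix1 KO muscle, a rise of 0.73 ± 0.07 (SE, adjusted p = 0.00577 by limma). In TA the medians of the macrophage and of the precursor and fibroblast markers were 0.07 and 0.01, with 0 called. Of 11 slow fiber genes 9 were called higher in gastrocnemius, where 0.908% of all genes were. Without cSix1 KO array 2, 4 of the slow fiber genes were called, and the share of all genes in that fit is not given. Their medians were 1.03 in gastrocnemius and 0.97 in TA. In TA 0 of 11 were called and 7 had an unadjusted p under 0.05 by limma, against 8.65% of all genes. Of the 10 fast fiber and muscle genes 0 were called, with medians of -0.06 in TA and -0.12 in gastrocnemius. The PPAR target genes of muscle, 12 measured, had 0 called and medians of -0.08 and 0.18. The part of macrophage, fibroblast or slow fiber RNA in the differences of the adipocyte genes was not tested.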

How the data were processed

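The data are 4 TA and 6 gastrocnemius samples, 1 array each, of the Affymetrix type Mouse Gene 1.0 ST. The authors deposited log2 signals made by RMA; the processing notes name RMA and Partek with no version, and the methods name R. RNA kit and age at sampling are given differently by the labels and by the methods. The value table held 35556 probe sets, of which 21789 carried 1 gene symbol and gave 19938 genes. For 999 genes with several probe sets the brightest was used.

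R 4.3.3 and its package limma 3.58.1 were used for the fits. TA and gastrocnemius were fitted separately (functions lmFit and eBayes, two-sided, Benjamini-Hochberg over all genes, threshold 0.05), and the difference between comparisons was taken over all 10 arrays. The fits were tested on simulated data. Correlations (scipy 1.17.1), tables (pandas 2.3.3) and figures (matplotlib 3.10.9) were made in Python 3.11.15. The genes and lists were chosen with earlier results of these data known. Exact permutation p-values planned for the correlations of Ces1d are not given, since the group difference enters them. Arrays give no read depth, and their number limits the precision. Lists are described by counts and medians, and up to 4 genes per list were named, those called first and then those with the largest moderated statistic. The relatives of Ces1d in the Ces1 cluster were named as well. The genes nearest to Ces1d and Adipoq are the 5 with the highest Pearson r among genes brighter than the median. Pecam1, Flt1, Ucp1 and the others named from lists follow this rule, and Pparg and Cyp2e1 were named after their values were seen.

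The alternatives changed the scaling (quantile normalization, median centring), the genes (dim genes left out, mean of probe sets), the fit (all 10 arrays together, a robust prior with intensity trend, weights per array, replicate number as block, the t-test of the methods) or the arrays (each left out in turn). Same-numbered arrays had deviations that correlated at 0.185 in TA and at 0.216, -0.137 and 0.084 in gastrocnemius, and no source ties a number to a mouse, so the numbers were not taken to pair samples, although TA control and knockdown muscles may share mice.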

Additional observations from a re-analysis of the deposited data

Results flagged for a closer look

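The difference of Cidea was smaller in gastrocnemius (0.41) than in TA (1.31), by -0.90 ± 0.13 (SE, adjusted p = 0.0272 by limma), with the shlinc-MYH or cSix1 KO arrays above the controls in both muscles. Cidea was dim, with control means at percentile 36.5 of genes in TA and 21.3 in gastrocnemius, on arrays of different distributions. This call was lost under 10 of 13 alternatives. Scd2 was lower on the 2 shlinc-MYH arrays (-0.86) and higher on the 3 cSix1 KO arrays (0.64), a difference between comparisons of 1.5 ± 0.20 (SE, adjusted p = 0.0193 by limma). The call of Scd2 was lost under 6 of 13 alternatives. Ces1d differed between the comparisons by 1.95 in the same direction as Scd2, with no overlap of groups in either muscle. That difference chose the gene and was not tested. The effects come from different muscles, dissections and perturbations, which cannot be told apart.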

How the results depend on the processing

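Under every alternative that kept all arrays, 0 of 8 adipocyte genes were called in TA, in gastrocnemius and for the difference between comparisons. In gastrocnemius this was also so when each array was left out in turn. The main fits called 0.015%, 1.74% and 0.145% of all genes, so a count of 0 among 8 genes says little about them. Apart from the t-test of the methods, the shares of all genes under the alternatives are not given. With the replicate number as a block the counts were 0, 0 and 0, the medians of the 6 fat cell genes were -0.16 and 0.30 and the Ces1d differences -1.02 and 0.93. Among list genes, the block cut the slow fiber genes called in gastrocnemius from 9 to 8, and Cidea (0.41, adjusted p = 0.0943), Me1 (-0.60, 0.0764) and Car1 (-0.50, 0.0852) in gastrocnemius were no longer called by limma, nor was the difference of Cidea between comparisons (-0.90, 0.0869). Leaving out each array in turn gave medians from -0.35 to -0.03 in TA and from 0.12 to 0.56 in gastrocnemius, and Ces1d differences from -1.43 to -0.61 and from 0.59 to 1.19. The difference of Ces1d in gastrocnemius was smallest with array weights (0.70) among the other settings. The median correlation of Ces1d with the 8 genes, 0.49, was -0.19 without the 2 farthest arrays, 0.34 with group means subtracted and 0.95 without cSix1 KO array 3. The first setting leaves 4 arrays per gene.

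Signs in TA turned on leaving out 1 array for Adipoq (0.14 without control array 1, 0.73 without shlinc-MYH array 2, range -0.84 to 0.73), Retn (0.13 without shlinc-MYH array 2, range -0.32 to 0.13), Lep (0.24 without control array 1, 0.04 without shlinc-MYH array 2, range -0.38 to 0.24) and Scd1 (-0.66 without control array 2, -0.94 without shlinc-MYH array 1, range -0.94 to 1.21). They also turned for Dlk1 (-0.049, range to 0.21), Me1 (0.12, range from -1.04), Agpat2 (0.07 and 0.12, range from -0.36), Gpd1 (0.038, range from -0.30), Car1 (-0.23, range to 1.17) and Mrc1 (-0.18, range to 0.42). Where 1 array was left, its spread was taken as that of the others. Of 466 alternatives for 17 list genes, 412 kept direction and side of the threshold, 30 lost the call, 17 gained it and 7 reversed. Cidea in gastrocnemius lost its call with median centring, quantile normalization and the methods' t-test as well, and gained it in TA with all 10 arrays in 1 fit (adjusted p = 0.000657) and with median centring (0.0467). The 9 slow fiber genes called in gastrocnemius became 4 with all 10 arrays in 1 fit, for which the share of all genes is not given. By the methods' t-test they became 0, where 0.0201% of all genes were called. All 11 slow fiber genes were higher without overlap in gastrocnemius, where 11.0% of all genes were.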
